A study of Mus musculus with 2 samples.

Results

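The 5 genes that encode kainate-type glutamate receptor subunits (Grik1, Grik2, Grik3, Grik4 and Grik5) and the 2 genes that encode their auxiliary proteins (Neto1 and Neto2) were measured in mouse J-RGCs at postnatal day 6, a ganglion cell type of the retina that is known for the adhesion molecule JAM-B, the product of Jam2. The genes were chosen by symbol and make up 7 of the 24015 gene symbols in the count files, and each of them had a row in both files. A transgene marked the type with Green Fluorescent Protein, and the marked cells were isolated with magnetic beads followed by flow cytometry. Neither the name of the line nor the strain or sex of the mice is stated in the labels. RNA from 2 litters gave 2 libraries in 1 group, named A and B, and each library pooled 5 to 6 animals, so no value belongs to a single animal. The series holds no other cell type, age or treatment, so the data show how these genes stand among themselves, beside other genes of the same libraries, and between the litters.

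Kainate receptors are ion channels opened by glutamate and built from tetramers of GluK subunits. GluK1, GluK2 and GluK3, the products of Grik1 to Grik3, can form channels by themselves, whereas GluK4 and GluK5, the products of Grik4 and Grik5, bind kainate with high affinity and reach the membrane as working channels only together with the former. The Neto proteins cross the membrane once, carry CUB domains outside the cell, and change the gating and agonist affinity of kainate receptors. In the retina, kainate receptors are best known from OFF cone bipolar cells, which receive cone signals through them, while fast excitation of ganglion cells is known to run mainly through AMPA and NMDA receptors.

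The gene counts totalled 7916204 in library A and 13744313 in library B. Levels are given as counts per 1000000 gene counts (CPM) and, to compare genes of different length, as CPM per kilobase of summed exon length (CPM per kb). The sort carried the transcripts of its label: all 8 ganglion cell markers stood above 100 CPM in both libraries, and Jam2, the gene that defines the type, stood at 2344 and 1203 CPM in A and B. The marker lists of other retinal cells were read at lower summed levels. Single markers could still be high: Dkk3 of the Müller glia list stood at 317 and 223 CPM, above the ganglion cell marker Isl1 at 105 and 188 CPM. The 6 OFF cone bipolar markers summed to 14.0 and 50.9 CPM, the 6 general bipolar markers to 253 and 119 CPM, the 8 amacrine markers to 126 and 108 CPM, the 4 horizontal cell markers to 14.5 and 30.5 CPM, the 6 Müller glia markers to 496 and 395 CPM, the 6 microglia markers to 268 and 331 CPM, the 5 rod markers to 37.6 and 31.2 CPM and the 4 cycling cell markers to 166 and 79.4 CPM, against 9817 and 13266 CPM for the 8 ganglion cell markers. In a sorted pool, fewer cells of a kind and less RNA per cell cannot be told apart.

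Neto2 stood far above every other gene of the group. Its count was 4740 in library A and 8946 in library B, which is 599 CPM (exact Poisson 95% interval 582 to 616) and 651 CPM (637 to 665). Per length this was 97.7 and 106 CPM per kb, with a mean of 102 ± 6.01 (SD, n = 2), which placed Neto2 at rank 217 among the 16133 genes with a count and a known length. Scaled by the gene totals, the libraries lay close together for Neto2, although their counting intervals did not overlap. With the other library scalings given below, the SD was 13.1 (edgeR's TMM factors) and 17.8 CPM per kb (DESeq2 size factors). The lower value of Neto2 exceeded the higher value of each of the other 6 genes.

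The related gene Neto1 was read at a small fraction of that level. It had 41 counts in A and 146 in B, or 5.18 CPM (3.72 to 7.03) and 10.6 CPM (8.97 to 12.5), with a mean level of 0.946 ± 0.461 CPM per kb. Of the summed per-length level of both Neto genes, Neto1 made up 0.631% in A and 1.18% in B. The per-length ratio of Neto2 to Neto1 was 158 in A and 83.5 in B, and 108 over both, with a 95% interval of 34.9 to 333 that includes counting error and the spread between libraries. Both libraries thus had the same auxiliary gene in front, and Neto1 stood at rank 10158 by the same measure.

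The upstream sequence of the highest and the lowest gene of the group is shown because these genes span the range of levels described here. Each is the 250 bases before the first start that RefSeq annotates in the GRCm38.p6 build, for Neto2 at chr8:85700925-85701174 and for Grik4 at chr9:42944372-42944621, both on the minus strand and written 5′ to 3′. Capitals mark GC boxes (GGGCGG), searched on both strands.
Neto2: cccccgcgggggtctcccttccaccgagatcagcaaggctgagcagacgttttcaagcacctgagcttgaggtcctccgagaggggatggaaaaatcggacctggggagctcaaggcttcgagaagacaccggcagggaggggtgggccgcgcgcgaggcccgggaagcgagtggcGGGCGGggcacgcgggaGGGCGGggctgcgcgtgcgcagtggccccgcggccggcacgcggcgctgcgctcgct
Grik4: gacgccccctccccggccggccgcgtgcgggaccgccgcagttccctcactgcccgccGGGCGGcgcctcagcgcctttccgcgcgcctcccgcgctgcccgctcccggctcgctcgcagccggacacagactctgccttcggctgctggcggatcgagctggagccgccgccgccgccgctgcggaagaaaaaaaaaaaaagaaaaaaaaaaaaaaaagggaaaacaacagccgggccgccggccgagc
The Neto2 window holds 2 GC boxes and 30 CpG dinucleotides, and the Grik4 window 1 GC box and 36 CpG. A TATA box (TATAAA, either strand) was in neither. Of all 32851 windows of this length 32.7% hold a GC box and 12.4% a TATA box, and the median window has 6 CpG. A window was found for 5 of the 7 genes. Grik3 had 42 CpG and 6 GC boxes, Grik2 20 CpG and no GC box, and Grik5 8 CpG and 2 GC boxes, so the CpG count did not follow the order of the levels. Matches are a description of these letters, and the counts per gene do not say which start was used.

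Among the receptor subunits, Grik5 was highest per length. It had 421 counts in A and 920 in B, which is 53.2 CPM (48.2 to 58.5) and 66.9 CPM (62.7 to 71.4), or 10.3 and 12.95 CPM per kb, with a mean of 11.6 ± 1.88. The libraries differed by 1.26-fold. Grik5 encodes GluK5, a subunit that depends on partners from Grik1 to Grik3.

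Grik3, which encodes GluK3, a subunit of low glutamate affinity, was the leading gene among those whose products form channels by themselves. It had 355 and 1175 counts, or 44.8 CPM (40.3 to 49.8) in A and 85.5 CPM (80.7 to 90.5) in B. Its mean level was 7.26 ± 3.20 CPM per kb. Library B lay 1.91-fold above A, more than the counting intervals allow.

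Grik2, the gene of GluK2, which is found widely in the brain, came next. It had 174 and 567 counts, or 22.0 CPM (18.8 to 25.5) and 41.3 CPM (37.9 to 44.8), with a mean level of 2.39 ± 1.03 CPM per kb. Its exons sum to 13.2 kb, the longest of the group. In CPM, without length, it was 31.6 ± 13.6.

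Grik1, the gene of GluK1, differed most between the libraries. It had 25 counts in A and 225 in B, or 3.16 CPM (2.04 to 4.66) and 16.4 CPM (14.3 to 18.7). The level was 0.470 and 2.44 CPM per kb, with a mean of 1.45 ± 1.39, so the SD was nearly as large as the mean. Its place among the lowest genes was seen in both libraries, but its level was not fixed by these data.

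Grik4, the gene of GluK4, was lowest per length. It had 20 and 86 counts, or 2.53 CPM (1.54 to 3.90) and 6.26 CPM (5.00 to 7.73), with a mean level of 0.737 ± 0.443 CPM per kb. All 7 genes were read at 1 CPM or more in both libraries, as were 11241 of all 24015 symbols. Of the 7 genes, 4 (Neto2, Grik5, Grik3 and Grik2) were read at 10 CPM or more.

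**Figure D1:**
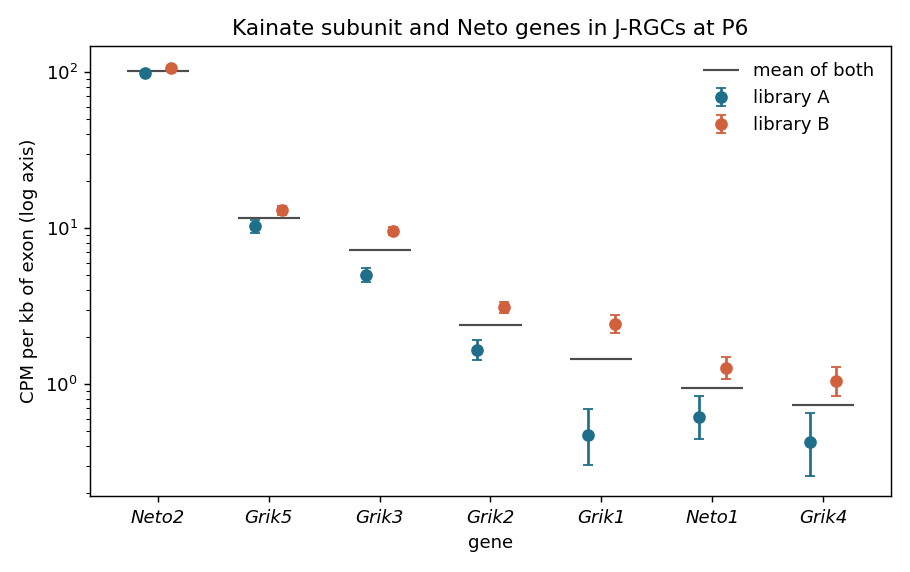
Level of each gene in CPM per kb of summed exon length (log axis) in library A (blue) and library B (orange). Bars are exact Poisson 95% intervals of the count and cover counting error only, and the line is the mean of both. Neto2 sits at 97.7 and 106, Grik5 at 10.3 and 12.95, and the points of library B lie above those of A for all 7 genes.

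Per length the order was Neto2, Grik5, Grik3, Grik2, Grik1, Neto1 and Grik4. Of the 21 pairs, 20 had the same order in both libraries. The exception was Grik1 and Neto1, where Grik1 was 0.758-fold of Neto1 in A and 1.92-fold in B. The 95% interval of the ratio excluded equal levels for 15 of the 21 pairs, or for 12 with intervals widened for 21 comparisons. Among them were all 6 pairs with Neto2, the closest of which was Neto2 over Grik5 at 8.77-fold (3.49 to 22.1).

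Of the 6 neighbours in the order, 2 were separated. Besides Neto2 over Grik5 this was Grik3 over Grik2, at 3.04-fold (1.22 to 7.56), a log2 ratio of 1.61. That call ended with the longest transcript as length (log2 ratio 1.11, -0.20 to 2.43), without length correction (1.04, -0.27 to 2.36), with the interval widened for 21 pairs (-0.43 to 3.64) and when either library was left out. Grik5 over Grik3 was 1.60-fold (0.679 to 3.77), Grik2 over Grik1 1.64-fold (0.50 to 5.40), Grik1 over Neto1 1.54-fold (0.410 to 5.75) and Neto1 over Grik4 1.28-fold (0.367 to 4.49), so these neighbours did not differ beyond their spread. Grik5 was further apart from the lower genes, at 4.87-fold over Grik2 (1.99 to 11.9), 8.0-fold over Grik1 (2.53 to 25.2) and 15.8-fold over Grik4 (5.41 to 46.0). Without length correction the log2 ratio of Grik5 to Grik2 fell from 2.28 to 0.93 (-0.37 to 2.22), which ended that separation.

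**Figure D2:**
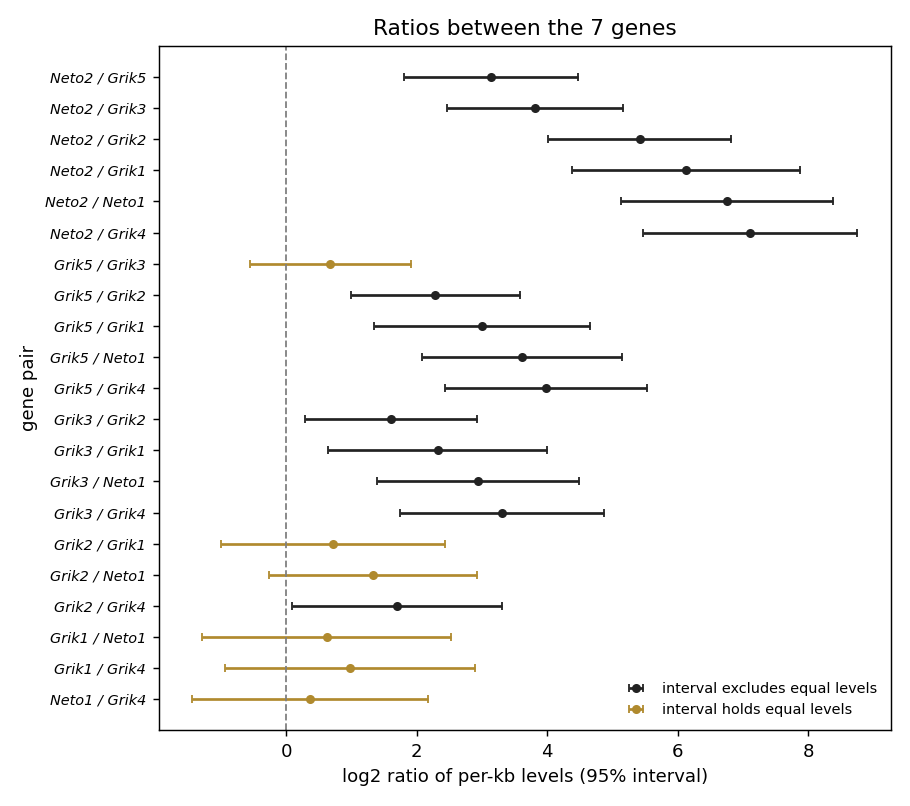
The log2 ratio of per-kb levels for the 21 pairs of genes, with 95% intervals from counting error and the spread between libraries. All 6 intervals with Neto2 lie to the right of equal levels (dashed line), while the pairs among Grik2, Grik1, Neto1 and Grik4 mostly hold it.

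Within the summed level of the 5 kainate subunit genes, Grik5 made up 57.7% in A and 44.5% in B, and Grik3 28.01% and 32.8%. Grik2 made up 9.30% and 10.7%, Grik1 2.63% and 8.38%, and Grik4 2.38% and 3.61%. The genes of the partner-dependent subunits, Grik4 and Grik5, together held 60.1% in A and 48.2% in B, a mean of 54.1% ± 8.42. This share was 39.1% ± 7.41 in CPM without length. The level of Neto2 alone was 5.48 times that of the 5 subunit genes together in A and 3.65 times in B, and Neto1 stood at 0.0348 and 0.0437 times that sum. Levels of RNA do not give the number of subunits or Neto proteins in a receptor.

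The kainate subunit genes made up 12.9% of the summed level of all 18 ionotropic glutamate receptor subunit genes in A and 15.1% in B, a mean of 14.0% ± 1.57. The 7 NMDA genes held 14.5% and 13.2%, the 4 AMPA genes 72.04% and 70.6%, and the 2 delta genes 0.638% and 1.16%. Per length, the kainate and NMDA shares lay within 2 percentage points of each other in both libraries. Which of these shares was higher differed between the libraries. Without length correction the NMDA genes were higher in both libraries. They summed to 255 and 360 CPM, against 126 and 216 CPM for the kainate genes. By per-length level Grik5 ranked 4 of 18, after the AMPA genes Gria4 (56.8 ± 20.1 CPM per kb), Gria2 (32.2 ± 3.64) and Gria3 (18.6 ± 0.247), and Grik3 ranked 8. In mean CPM without length, Grik5 (60.1) also lay below Grik3 (65.2), Gria1 (62.3), Grin3a (117), Grin2b (104) and Grin1 (71.3).

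Against single genes of the other families, Grik5 was separated from Gria4, at 0.204-fold (0.0816 to 0.512), and from Gria2, at 0.361-fold (0.144 to 0.903). It was not separated from Gria3 (0.625-fold, 0.261 to 1.49), from Gria1 (1.13-fold, 0.487 to 2.61), from the obligatory NMDA gene Grin1 (1.58-fold, 0.683 to 3.66) or from Grin3a (1.22-fold, 0.519 to 2.85). Neto2 exceeded 10 of the 11 AMPA, NMDA and delta genes that had enough reads for an estimate of their dispersion. It stood at 3.17-fold over Gria2 (1.17 to 8.54) and 13.9-fold over Grin1 (5.53 to 34.8), and was not separated from Gria4 (1.79-fold, 0.664 to 4.84). These intervals were not widened for the number of pairs, and the ratios to other families were not repeated without length correction. In CPM without length, Neto2 stood at 599 and 651 and Gria2 at 460 and 541, much closer than per length.

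**Figure D3:**
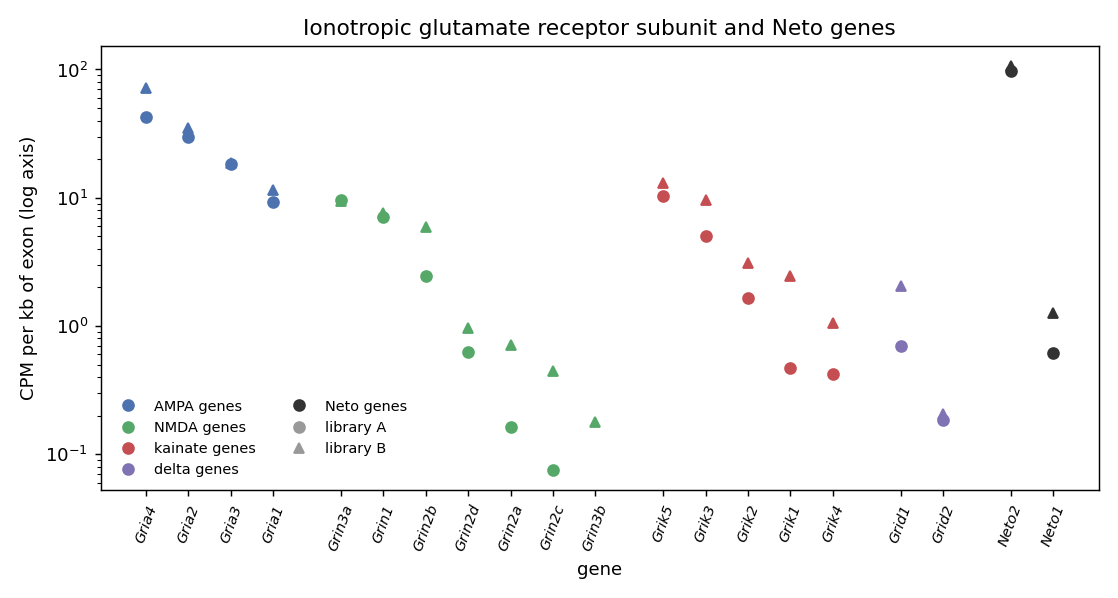
Level in CPM per kb of summed exon length (log axis) of the 18 ionotropic glutamate receptor subunit genes by family and of the Neto genes, with circles for library A and triangles for library B. Grik5 lies above the NMDA genes in both libraries and Grik3 near Grin3a and Grin1, both below Gria4, Gria2 and Gria3, and Neto2 lies at or above the highest AMPA gene. Grin3b had no count in A and is shown for B only.

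Library B was compared with library A for each gene by an exact two-sided binomial test with Benjamini-Hochberg adjustment over all 14107 genes with at least 10 counts, called where the adjusted p was under 0.05 and the levels differed at least 2-fold. This compares 2 litters and their libraries, not conditions. Of all tested genes, 33.6% were called higher in B and 10.9% higher in A, and the median log2 of B over A was 0.57. Of the 7 genes, 3 were called higher in B, none was called higher in A, and their median was 0.93. A count of 3 in 7 is close to that background. At an adjusted p under 0.05 with no limit on the fold, all 7 were higher in B, against 57% of all tested genes. This holds for levels scaled by the gene totals, and other scalings are given below.

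The called genes were Grik1, Grik4 and Neto1, the lowest 3 of the group. Grik1, at 3.16 and 16.4 CPM, had a log2 ratio of 2.37 (exact binomial, adjusted p = 8.8e-21), and 85.0% of all tested genes had a lower ratio. Grik4 had a ratio of 1.31 (exact binomial, adjusted p = 0.00020) and Neto1 of 1.04 (exact binomial, adjusted p = 4.4e-05). Grik2 and Grik3, at 0.91 and 0.93, were beyond counting error but under 2-fold, as were Grik5 at 0.33 and Neto2 at 0.12.

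The ratio moved with the level over all genes. The 6338 tested genes under a mean of 10 CPM had a median log2 ratio of 1.24 and 50.7% of them were called higher in B, against 0.42 and 24.9% for the 5773 genes from 10 to 100 CPM, and 0.20 and 4.76% for the 1996 genes above. Neto1 and Grik4 thus stood near the median of the genes under 10 CPM and Grik1 well above it. Neto1, at a mean of 7.90 CPM, and Grik1, at 9.76 CPM, lay in the upper part of that range. Its median need not hold for genes at just their level, which was not tested. Scaling with edgeR's TMM factors shifted all log2 ratios by 0.38. Grik1 was then the only gene of the group that was called, at 1.99, while Grik5 and Neto2 changed direction, to -0.051 and -0.26. Of all tested genes, 24% were called higher in B with TMM. With DESeq2 size factors Grik1 was at 1.90 and again the only call, against 22% of all tested genes called higher in B. A count of 1 in 7 did not exceed either share. Under both scalings Neto2 was lower in B beyond counting error (exact binomial, adjusted p = 8.0e-23 with TMM and 9.0e-41 with DESeq2). Grik5 was then within counting error (exact binomial, adjusted p = 0.62 and 0.12).

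Of the 6 markers of OFF cone bipolar cells, in which Grik1 is known to be used, 4 could be tested and 3 were called higher in B, against 33.6% of all tested genes and 50.7% of those under 10 CPM: Tacr3 (1.01 and 7.86 CPM), Irx6 (12.1 and 39.3 CPM) and Erbb4 (0.379 and 2.47 CPM). Vsx1 stood at 0.505 and 1.02 CPM, and Fezf2 and Cabp5 had no count in A and 2 counts each in B. Of the 6 general bipolar markers 5 could be tested. Of these 2 were called higher in A, against 10.9% of all tested genes: Grm6 (96.4 and 0.582 CPM) and Scgn (3.16 and 0.364 CPM). Of the horizontal cell markers 2 of 3 tested were called higher in B, and of the amacrine markers 2 of 6, with 1 higher in A. Of the Müller glia markers 2 of 6 were called higher in A and 1 higher in B. Of the rod markers 2 of 5 were called higher in A and 1 higher in B. Of the cycling cell markers 1 of 4 was called higher in A. The microglia markers had 1 of 6 called higher in B, and the ganglion cell markers 2 of 8. The part of other cells in the reads of Grik1, or of the other genes of the group, was not tested.

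**Figure D4:**
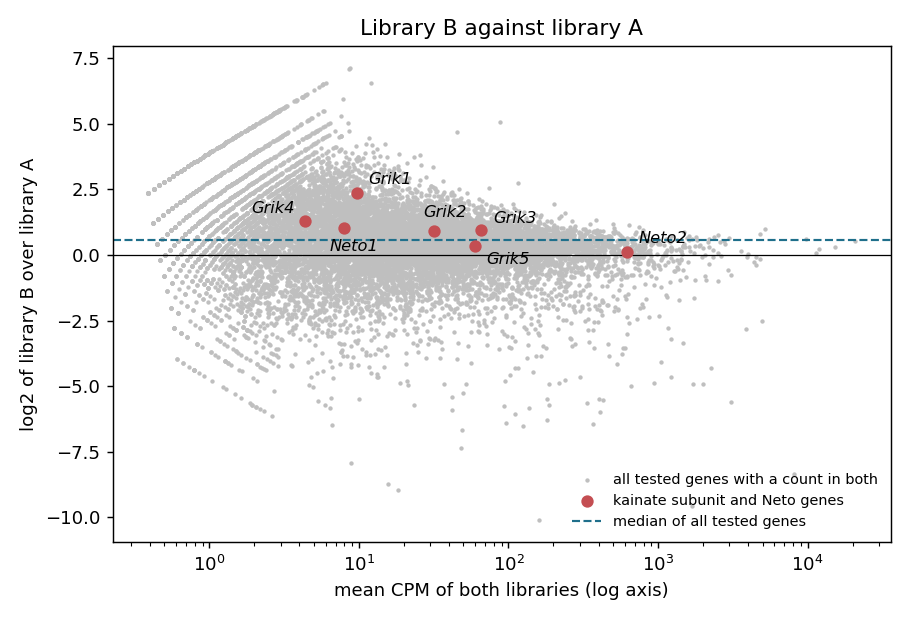
The log2 of library B over library A against the mean CPM (log axis) for the 13202 tested genes with a count in both libraries (grey) and for the kainate subunit and Neto genes (red). The dashed line is the median of all tested genes, 0.57. Grik1 lies highest of the group at 2.37, Neto2 lies at 0.12, and the cloud of all genes rises towards low levels.

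Of the 13 other ionotropic receptor subunit genes, 12 could be tested. Of these 4 were called higher in B, none higher in A and 8 were not called, with a median log2 ratio of 0.47, so the share called higher in B was close to the 33.6% over all tested genes. The 4 were Grin2a, Grin2b, Grin2c and Grid1, named for their calls. None of the 4 AMPA genes was called. Gria2, Gria3 and Gria4 had a mean of 100 CPM or more, where 4.76% of tested genes were called higher in B. Gria1, at a mean of 62.3 CPM, lay between 10 and 100 CPM, where 24.9% were.

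Genes tied to the editing, trafficking and anchoring of kainate receptors were mostly read. Of the 19 genes on that list 16 were read at 1 CPM or more in both libraries, against 11241 of all 24015 symbols. The highest per length were Gnao1, a G protein subunit through which kainate receptors can signal without ion flow, at 228 ± 8.06 CPM per kb, the scaffold gene Cask at 113 ± 29.7 and the scaffold gene Dlg2 (PSD-93) at 111 ± 30.4. The editing enzyme gene Adarb1, which acts on the pore codon of Grik1 and Grik2 transcripts, stood at 105 and 158 CPM, and Slc12a5, whose chloride transporter KCC2 is a known partner of Neto2, at 296 and 261 CPM. Dlg4 (PSD-95) stood at 169 CPM in both, and the scaffold gene Grip1 at 320 and 396 CPM.

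The secreted C1q-like genes of that list, of which C1ql2 and C1ql3 are known to recruit kainate receptors at hippocampal mossy fibre synapses, were at the bottom. C1ql1 and C1ql2 had no count in A and 2 and 3 counts in B, at or under the floor of 3 counts (0.379 CPM in A and 0.218 CPM in B). C1ql3 stood at 4.29 CPM in A and 0.509 CPM in B. Between the libraries 17 genes of the list were tested, with a median log2 ratio of 0.31. Of these 1 was called higher in B (Pick1, 6.57 and 14.4 CPM), 1 higher in A (C1ql3) and 15 were not called. Over all tested genes, 33.6% were called higher in B and 10.9% higher in A. Most of the 17 genes had a mean of 100 CPM or more, where 4.76% of tested genes were called higher in B. The others lay between 10 and 100 CPM, where 24.9% were, or, for C1ql3, below. The share of 33.6% is thus not matched to the levels of this list. Adarb1, Slc12a5, Dlg4, Grip1, Pick1 and the C1q-like genes were named after their values were seen.

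With 2 libraries, likeness to another gene says only that level and ratio are alike. By distance in log2(CPM + 0.5) over both libraries, the genes nearest to Neto2 were Spock2 (573 and 656 CPM), Trim2 (607 and 621 CPM) and Nbea (585 and 622 CPM). Those nearest to Grik4 were Rcl1 (2.65 and 6.33 CPM), Tmem191c (2.40 and 6.26 CPM) and Clasrp (2.40 and 6.40 CPM).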

How the data were processed

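Each library has a deposited file of raw counts, in whole reads for each gene symbol. The mm9 build and the tools Trimmomatic 0.32, TopHat2 2.0.10 and HTSeq 0.6.1 are named, per the submitters' processing notes. The gene annotation, settings and strand use are not stated there, so sense and antisense reads cannot be told apart. In GENCODE M21 the exons of Neto1 overlap an antisense gene over 219 bases (2.62% of their length), and other genes overlap 59 bases of Grik4 and 20 of Neto2. The cDNA came from the Ovation Ultralow V2 system, per the labels' protocols. Reads carry no molecular identifiers, so repeated reads of the same molecule cannot be told apart. Poisson intervals and the exact binomial test take reads as independent. They cover counting error only, and understate it where molecules were read repeatedly.

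Genes held 26.8% of the reads listed in A and 30.9% in B. Summary rows of other reads were left out of totals. CPM is the count per 1000000 gene counts. Summed exon lengths came from GENCODE M21 (GRCm38), another build than mm9, which matched 94.6% of symbols. Exon positions of GENCODE M21 served only for the lengths and the overlaps given above, and the lengths may differ from the authors' gene models.

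A single group leaves edgeR's quasi-likelihood test without a contrast, and 2 libraries cannot reach 0.05 in a permutation test. Ratios between genes were given 95% intervals from counting error and the trended dispersion of an intercept-only edgeR 4.0.16 fit (R 4.3.3, 11272 genes, common coefficient of variation 0.507). The between-library test is as described above, with Python 3.11.15, scipy 1.17.1, numpy 2.4.6 and pandas 2.3.3. Both were run on simulated data, with Poisson counts for the test and the same fitted dispersion for the intervals. Such runs check the calculation, not false calls or interval coverage in these libraries. DESeq2 1.42.0 gave alternative size factors.

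1 marker of the bipolar cell list is not reported here. The genes and lists were chosen with earlier results of these data known. The rule for named genes took all 7 members, the highest 3 per length of each other list, and the 3 genes nearest in level to the highest and lowest member. Alternatives changed the library scaling, length, dispersion, interval width, count minimum, fold rule and detection level, or left out a library.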

Additional observations from a re-analysis of the deposited data

How the results depend on the processing

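No paired analysis was possible because the study has 1 group. All 6 ratios with Neto2 kept their direction and stayed separated under the 7 alternatives for pairs, with log2 values from 2.91 to 7.85. The number of separated pairs, 15, was 14 with the longest transcript and without length correction, 15 with the common or the gene-wise dispersion, 12 with intervals widened for 21 pairs, and 12 to 13 with a library left out, which widens intervals by construction. Without length correction the log2 ratio of Grik5 over Grik3 reversed to -0.12 and, with a library left out, that of Grik1 over Neto1 ranged from -0.40 (without B) to 0.94 (without A). Neither pair was separated. The kainate share of the ionotropic level was 12.3% with the longest transcript and 10.5% without length correction, and the share of Grik4 plus Grik5 was 39.1% without length correction. At 10 CPM in both libraries 4 genes were detected. The log2 of B over A reversed for Grik5 to -0.051 with TMM and -0.14 with DESeq2 factors, and for Neto2 to -0.26 and -0.36. Calls over all genes numbered 6274 (44.5% of tested genes), of which 75.6% were higher in B. They numbered 5561 with TMM (60.8% higher in B) and 5482 with DESeq2 factors (56.5%). At any fold 10974 genes passed, or 77.8% of tested genes, and all 7 genes of the group did. With the fold from CPM + 0.5, chosen after seeing the data, 6008 passed, or 42.6% of tested genes. Of the group 2 genes passed there and Neto1 did not. Leaving out a library allows no such comparison. Grik1, Grik4 and Neto1 rest on 20 to 41 counts in library A, which limits their levels there.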
